A study of Mus musculus with 14 samples.

Results

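The genes of the proteasome were taken as all array features whose annotated symbol begins with Psma, Psmb, Psmc, Psmd, Psme, Psmf or Psmg and a number. This rule, which uses names and no measured value, found 50 of the 19505 symbols on the array, each with 1 probe set, the group of probes that is summarised into 1 value per array. They comprise 13 constitutive subunits of the 20S core, the 3 immunoproteasome subunits Psmb8, Psmb9 and Psmb10, 2 tissue-restricted core subunits, 17 subunits of the 19S particle, 7 assembly chaperones, 5 activators and 1 inhibitor. The remaining 2, Psmc3ip and Psme3ip1, carry a matching name without being subunits. Psmb5, the third constitutive catalytic subunit, had no probe set under its symbol in the annotation used and was not analysed here.

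The proteasome is the protease that degrades ubiquitin-tagged proteins. Its barrel-shaped 20S core holds the catalytic sites in the beta rings, and the 19S particle on its ends recognises, unfolds and feeds in the substrate. Under interferon gamma, and constantly in many immune cells, the catalytic subunits Psmb6, Psmb7 and Psmb5 are replaced in newly built particles by Psmb9, Psmb10 and Psmb8, and the PA28 activator (Psme1 with Psme2) can take the place of 19S. This immunoproteasome is known for producing peptides for MHC class I presentation, in the liver mainly in sinusoidal and immune cells and, under inflammation, in hepatocytes.

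RNA was measured on 14 Clariom S mouse arrays from adult male C57Bl6 mice, all of WT genotype. For 2 weeks they ate CSAA as control, or the choline-deficient CDAA with cholesterol, glucose and fructose as supplements. Primary hepatocytes, released by collagenase perfusion, gave 3 arrays on each diet, and total liver, the caudal lobe after the heart was perfused with saline, gave 4 on each. The arrays are independent preparations per the series' design text, which does not say how many animals each holds, so p-values measure the spread between these preparations. The tissues were extracted with different kits and appear to have been normalised apart, so levels are set side by side and not compared between tissues. All values are log2 intensities, on which a difference of 1 is a doubling, and the number of arrays limits their precision.

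The hepatocyte marker genes were above background on every array: none of 8 was wholly under it in any group. In hepatocyte preparations all 8 read lower on CDAA, and 3 of them, Apob, Cps1 and Hnf4a, fell by 1.42, 1.35 and 1.72 on the log2 scale; none of the 3 passed with hepatocyte arrays alone. Background means the 95th percentile of 5222 intron controls on the array itself, which lay at 6.84 to 8.01 for hepatocytes and at 9.96 to 10.23 for total liver. Hepatocyte preparations from CDAA mice also carried the markers of other liver cells. All 8 leukocyte markers, all 9 macrophage markers, all 6 sinusoidal endothelial markers and all 5 stellate cell markers rose there on CDAA. The macrophage list averaged 5.65 to 5.98 per array on CSAA, with 8 of its 9 genes wholly under background, and 11.93 to 13.45 on CDAA, with none under. The leukocyte list averaged 5.27 to 6.11 on CSAA, against 10.59 to 12.33 on CDAA. In total liver the macrophage list averaged 9.37 to 10.30 on CSAA, against 11.55 to 12.25 on CDAA, and 6 of its 9 genes rose. The part of these cells in the results that follow was not tested. In such bulk samples fewer cells of a type and less RNA per cell cannot be told apart.

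The hepatocyte arrays stood apart from each other in the proteasome genes. Relative to each gene's mean over the 6 hepatocyte arrays, the 13 core genes averaged -0.54, -0.61 and 0.42 on CSAA (replicates 1 to 3) and -0.52, 0.64 and 0.61 on CDAA. CSAA replicate 3 thus lay with the higher CDAA arrays and CDAA replicate 1 with the lower CSAA arrays. CSAA replicate 3 was the highest CSAA array and CDAA replicate 1 the lowest CDAA array for 11 of the 13 core genes (84.6%), for all 3 immunoproteasome genes, for 8 of 17 genes of the 19S particle and for 16.7% of all tested probe sets. Of the CDAA arrays, replicate 1 also had the lowest mean of the macrophage list (11.93, against 13.45 and 13.17) and the highest of the hepatocyte markers (18.12, against 17.25 and 17.03). The macrophage means of the CSAA arrays (5.66, 5.98 and 5.65) cannot be ordered, since 8 of the 9 genes were wholly under background there. The part of either list in the order of the arrays was not tested. In total liver the same core mean lay between -0.11 and 0.21 on all 8 arrays. The spread within a group, as the median residual SD, was accordingly 0.59 for the members in hepatocytes and 0.20 in total liver, and it was larger in hepatocytes for 46 of the 50. Over all tested probe sets it was 0.40 and 0.26.

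**Figure D1:**
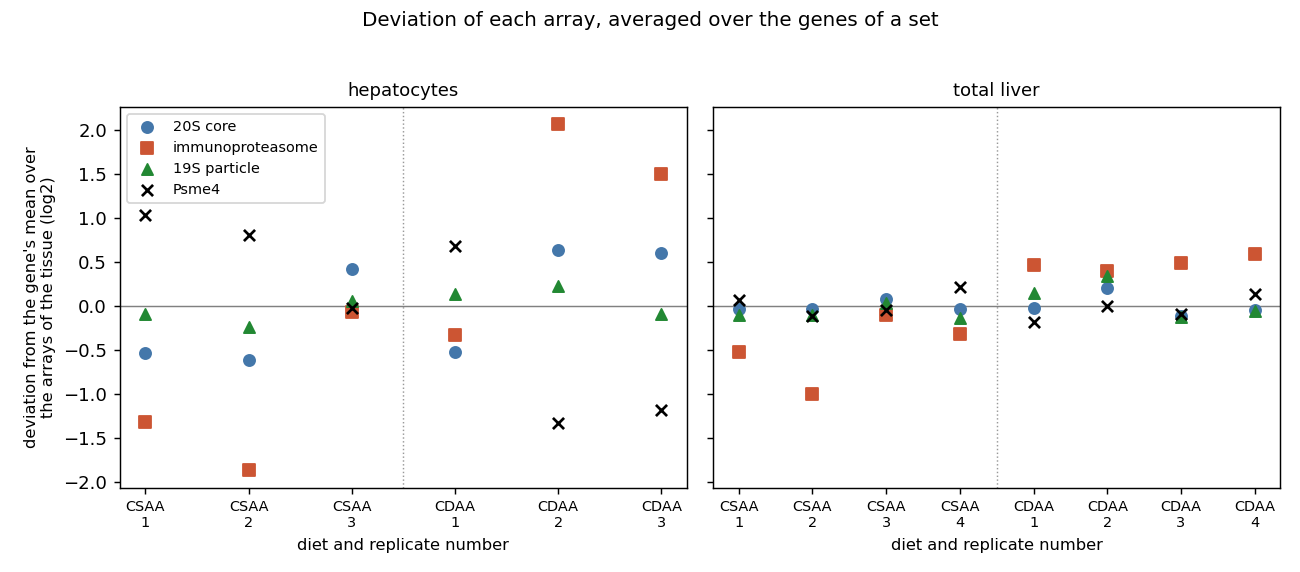
Mean deviation (log2) of each array from the genes' tissue means, for the 13 core genes, the 3 immunoproteasome genes, the 17 genes of the 19S particle and Psme4, with hepatocyte arrays on the left and total liver arrays on the right of the plot. Core values split the hepatocyte arrays into 3 near -0.5 to -0.6 and 3 at 0.42 to 0.64, with both diets on each side, while Psme4 runs the other way and total liver stays within -0.11 to 0.21 for the core.

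One limma model over all 14 arrays gave the diet difference in each tissue, and since it averages these unequal spreads, the fit on the arrays of 1 tissue alone is given beside it. In total liver 1 of the 50 genes rose on CDAA and none fell, while 10.3% of all tested probe sets passed (6.73% higher, 3.54% lower). At an unadjusted p under 0.05 the members numbered 6 (12%, where 23.6% of all probe sets had such a p). With total liver arrays alone 6 genes rose and 1 fell, where 20.8% of all probe sets passed (11.7% higher, 9.05% lower). In hepatocytes 7 genes rose and 1 fell, where 18.7% of all probe sets passed (11% higher, 7.74% lower). With hepatocyte arrays alone only Psmd8 passed, where 8.48% of all probe sets did (6.53% higher, 1.95% lower). Under quantile normalisation of both tissues together, and under centring on array medians, the hepatocyte split was 5 higher and 2 lower. Of all probe sets 24.4% and 24.3% passed under these settings. Single hepatocyte arrays moved it further: 18 members were higher and 3 lower without CDAA replicate 1, where 26.2% of all probe sets passed, and 12 were higher and 2 lower without CSAA replicate 3, where 19% did. Without CSAA replicate 1 the members called higher numbered 4, where 16% of all probe sets passed. Without CSAA replicate 2 or CDAA replicate 2 they numbered 3, where 15% and 13.7% of all passed. Without CSAA replicate 2 or CDAA replicate 3, where 15% and 18.4% of all passed, no member was lower. In total liver Psma8, a gene under background, came to pass beside Psmd8 without CDAA replicate 4, where 7.66% of all probe sets passed. The members' median difference was 0.11 in total liver and 0.18 in hepatocytes, beside -0.09 and -0.13 over all tested probe sets.

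Every CDAA array lay above every CSAA array for 10 members in total liver and below for 2, Psmb1 and Psmb7. Of all probe sets 13.1% were parted upwards and 12% downwards there. In hepatocytes 3 members, Psmb8, Psmd8 and Psmd10, were parted upwards and 1, Psmb11, downwards, where 12.4% and 14.2% of all probe sets were.

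**Figure D2:**
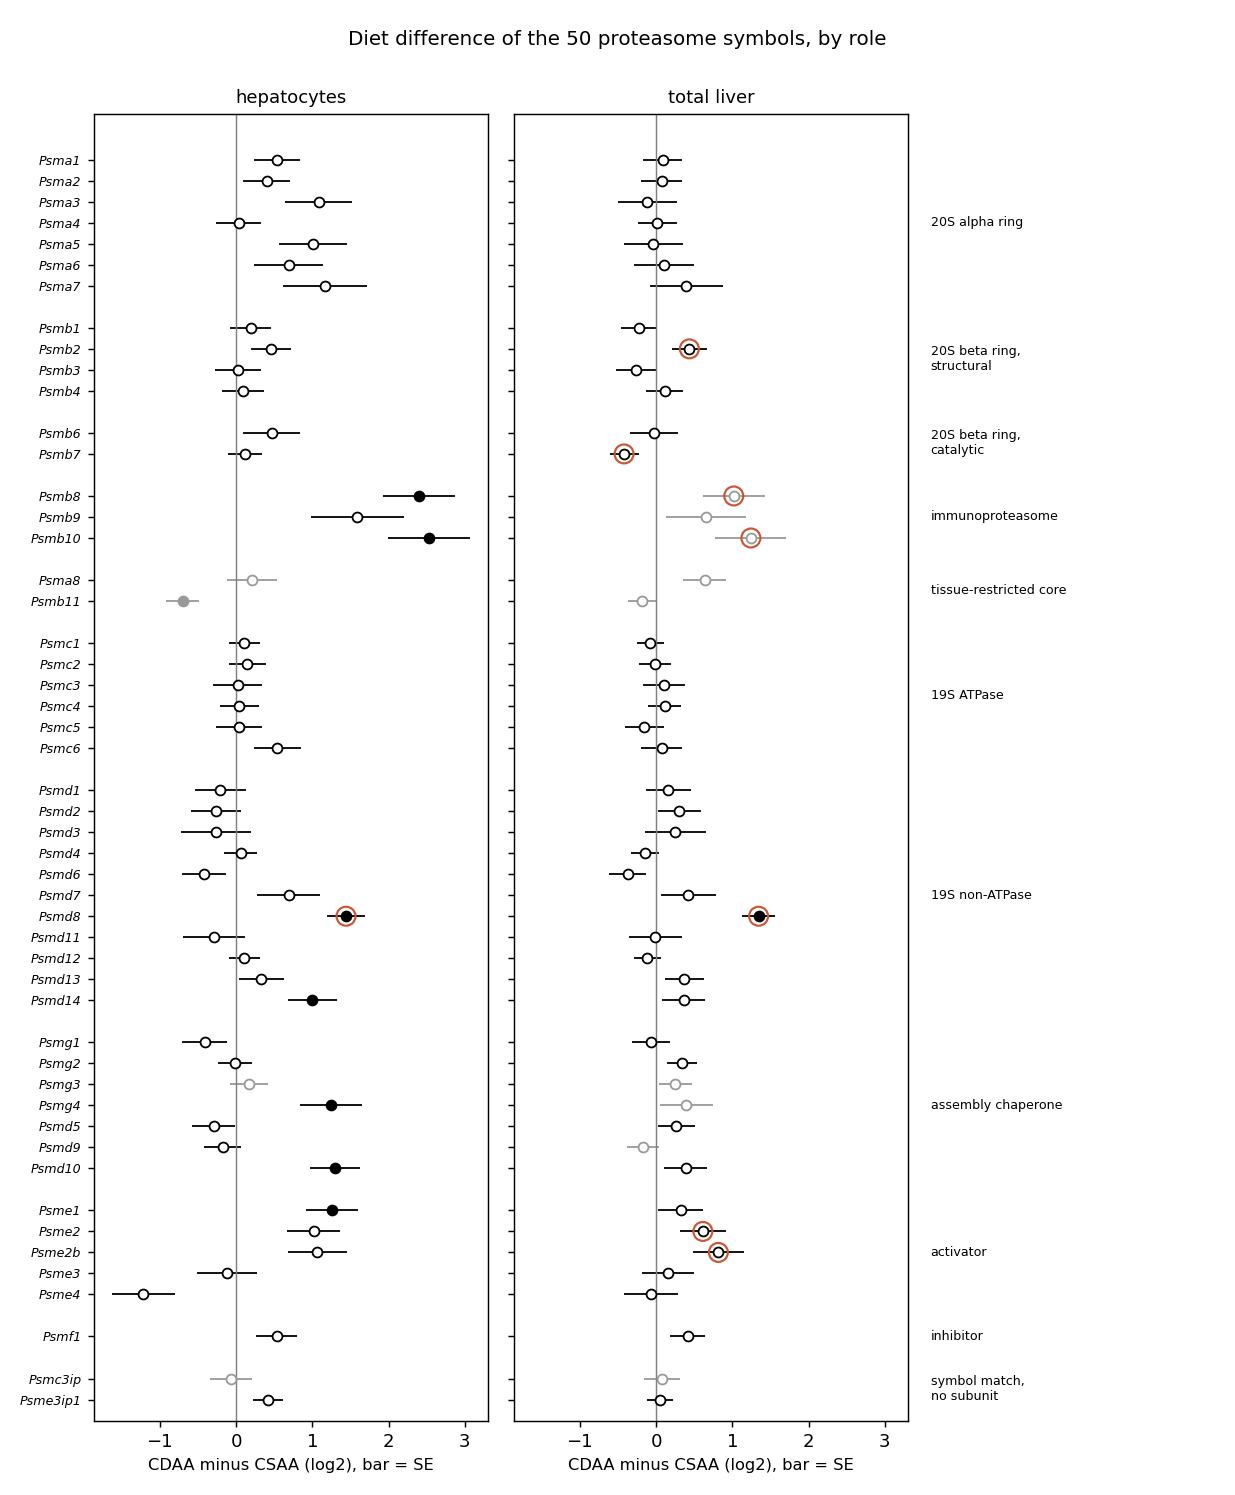
Log2 difference CDAA minus CSAA with its SE for each of the 50 genes, ordered by role, in hepatocytes (left) and total liver (right). Filled points passed the model over all 14 arrays, rings passed the fit on that tissue alone, and grey points were under background on all arrays of the tissue; Psmd8 is the 1 gene with both marks in both tissues.

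None of the 13 constitutive core genes passed the model over all arrays in either tissue. The 7 alpha ring and 4 structural beta ring genes, which form the barrel's outer gate and its non-catalytic wall, differed by -0.26 to 0.44 in total liver. In hepatocytes all 13 core differences were above 0, from 0.02 to 1.16, and the diets overlapped for each of them. Psma3, an alpha ring subunit, read 12.13, 11.52 and 13.24 in hepatocytes on CSAA and 12.34, 13.35 and 14.45 on CDAA. The groups overlapped, as CDAA replicate 1 lay under CSAA replicate 3 (difference 1.08 ± 0.44 SE, adjusted p = 0.105). In total liver Psma3 kept to 12.84 to 13.25 on all 8 arrays. Psma5, another alpha ring subunit, overlapped in the same order in hepatocytes (10.13, 10.55 and 11.43 on CSAA, 10.51, 11.85 and 12.79 on CDAA, adjusted p = 0.134).

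Among the constitutive catalytic subunits, Psmb6, the caspase-like protease, read 12.70, 12.87, 12.79 and 12.60 in total liver on CSAA and 12.62, 12.85, 12.78 and 12.61 on CDAA. The 2 diets overlapped fully (difference -0.03 ± 0.32). In hepatocytes it read 11.98, 12.05 and 13.13 against 11.84, 13.55 and 13.17, again overlapping. Psmb7, the trypsin-like protease, read 14.32, 14.37, 14.58 and 14.56 in total liver on CSAA and 14.06, 14.08, 13.91 and 14.10 on CDAA. All 4 CDAA arrays lay below the CSAA arrays by a small margin. The difference of -0.42 ± 0.19 did not pass over all arrays (adjusted p = 0.196) and passed with total liver alone (0.0470), with 0.0417 to 0.334 over 16 alternatives. In hepatocytes Psmb7 read 14.001, 13.49 and 14.40 on CSAA and 14.13, 14.19 and 13.93 on CDAA, without a parting of the groups. Psmb2, a structural beta subunit, read 12.38, 12.16, 12.53 and 12.42 in total liver on CSAA and 12.75, 12.84, 12.88 and 12.77 on CDAA. Its arrays were parted upwards (difference 0.44 ± 0.23, adjusted p = 0.263 over all arrays and 0.0418 with total liver alone, the lowest of 16 alternatives, which reached 0.458).

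Of the immunoproteasome subunits, Psmb8 and Psmb10 passed in hepatocytes and Psmb9 did not. Psmb8, the inducible chymotrypsin-like subunit, read 7.29, 6.87 and 8.35 on CSAA and 8.51, 10.46 and 10.72 on CDAA. Every CDAA array lay above the CSAA arrays, though CDAA replicate 1 by only a narrow margin, and 2 of the 3 CSAA arrays were under background. Psmb8 rose by 2.40 ± 0.47 (adjusted p = 0.00171). With hepatocyte arrays alone the adjusted p was 0.0639, the highest of 14 alternatives, the other 13 of which passed. Psmb10, the inducible trypsin-like subunit, read 7.0, 6.0 and 8.59 on CSAA and 8.53, 10.36 and 10.29 on CDAA. CDAA replicate 1 fell just below CSAA replicate 3, so the groups overlapped, and 2 CSAA arrays were under background. Psmb10 rose by 2.53 ± 0.54 (adjusted p = 0.00313), with 0.0846 for hepatocytes alone, again the only 1 of 14 alternatives that did not pass.

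Psmb9, the inducible subunit that replaces Psmb6, read 6.28, 6.04 and 7.37 in hepatocytes on CSAA and 6.50, 9.92 and 8.03 on CDAA. All CSAA arrays and CDAA replicate 1 were under background and the groups overlapped. The CDAA mean, which includes replicate 1 under background, lay 0.41 above the mean background of the CSAA arrays. The difference of 1.59 ± 0.61 did not pass (adjusted p = 0.0838). It passed in 3 of 14 alternatives, with adjusted p from 0.000118 to 0.379.

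In total liver all 3 immunoproteasome genes were under background on all arrays of both diets, so the size of their differences has no firm scale. Of the 22206 tested probe sets, 17191 on CSAA and 16866 on CDAA were likewise wholly under this background there. All readings of the 3 genes lay above the array medians of 5.85 to 6.06. Psmb8 read 8.66, 8.51, 9.26 and 8.93 on CSAA and 9.84, 9.97, 9.74 and 9.89 on CDAA. Psmb10 read 8.22, 7.67, 8.43 and 8.34 on CSAA and 9.33, 9.36, 9.35 and 9.61 on CDAA. The diets did not overlap in either gene. Psmb8 was higher by 1.02 ± 0.41 (adjusted p = 0.138 over all arrays, 0.00174 with total liver alone, and at most 0.283 over 16 alternatives). Psmb10 was higher by 1.24 ± 0.46 (0.111 over all arrays, 0.000569 with total liver alone, and at most 0.256 over 16 alternatives). Psmb9 read 8.15, 7.41, 8.59 and 8.39 on CSAA and 8.82, 8.46, 8.98 and 8.90 on CDAA, and overlapped (0.66 ± 0.53, adjusted p = 0.493). The averages of the leukocyte and macrophage lists were also higher on CDAA in both tissues. In total liver the leukocyte list averaged 8.50 to 8.80 on CSAA and 10.68 to 11.34 on CDAA. Among hepatocyte CSAA arrays the 3 immunoproteasome genes averaged 6.86, 6.30 and 8.10, and the macrophage list 5.66, 5.98 and 5.65. The leukocyte list averaged 5.27, 6.11 and 5.68 there. On these arrays 8 of 9 macrophage and 7 of 8 leukocyte markers were wholly under background, so the order of the 2 list means cannot be read. In hepatocytes the endothelial and stellate cell markers given above rose too, as did all 4 neutrophil markers. The part of these lists was not tested.

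**Figure D3:**
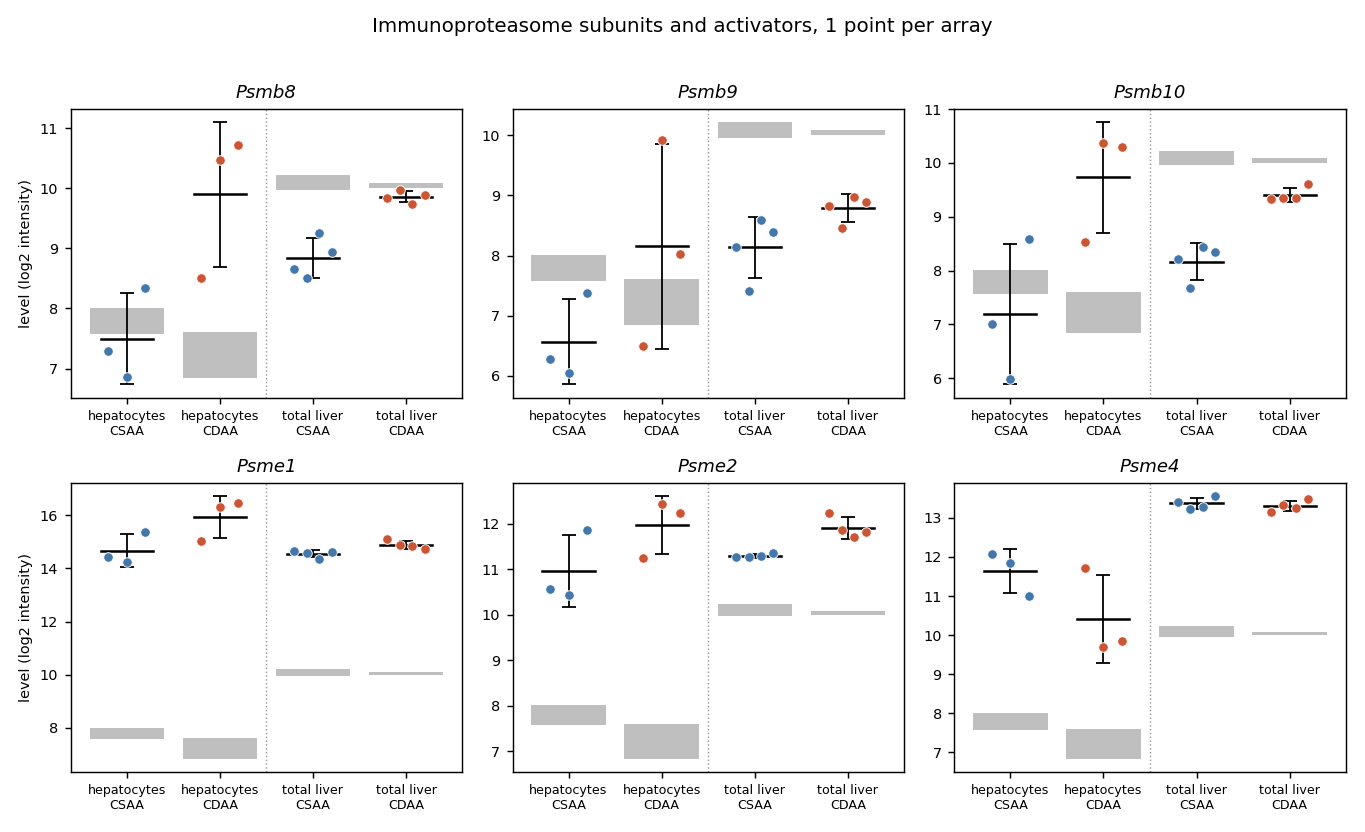
Level (log2 intensity) of 3 immunoproteasome subunits and 3 activators, 1 point per array, with mean and SD as black bars and the range of the background percentile in each group as a grey band. In hepatocytes CDAA replicate 1, the leftmost CDAA point, lies nearest the CSAA arrays for all 6 genes, and in total liver Psmb8, Psmb9 and Psmb10 lie under the grey band on both diets.

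Within an array, the inducible subunit can be set against the subunit it replaces, relative to the CSAA mean of that difference in the tissue. Psmb10 minus Psmb7 on CDAA was 1.56, 1.57, 1.72 and 1.80 in total liver (mean 1.66 ± 0.12 SD, n = 4) and 1.17, 2.94 and 3.13 in hepatocytes (2.42 ± 1.08 SD, n = 3). On CSAA it spanned -0.41 to 0.19 in total liver and -0.73 to 0.96 in hepatocytes, so neither tissue's diets overlapped. Psmb9 minus Psmb6 on CDAA was 0.68 ± 0.31 (SD, n = 4) in total liver and 1.12 ± 0.94 (SD, n = 3) in hepatocytes. Its lowest total liver CDAA array, at 0.22, lay within the CSAA range of -0.85 to 0.40, and its hepatocyte CDAA arrays, at 0.49, 2.20 and 0.68, lay above the CSAA range of -0.18 to 0.12. These differences are described without a test, and in total liver they rest on inducible genes under background. In hepatocytes Psmb9 was under background on all 3 CSAA arrays and CDAA replicate 1, and Psmb10 on 2 of the 3 CSAA arrays.

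**Figure D4:**
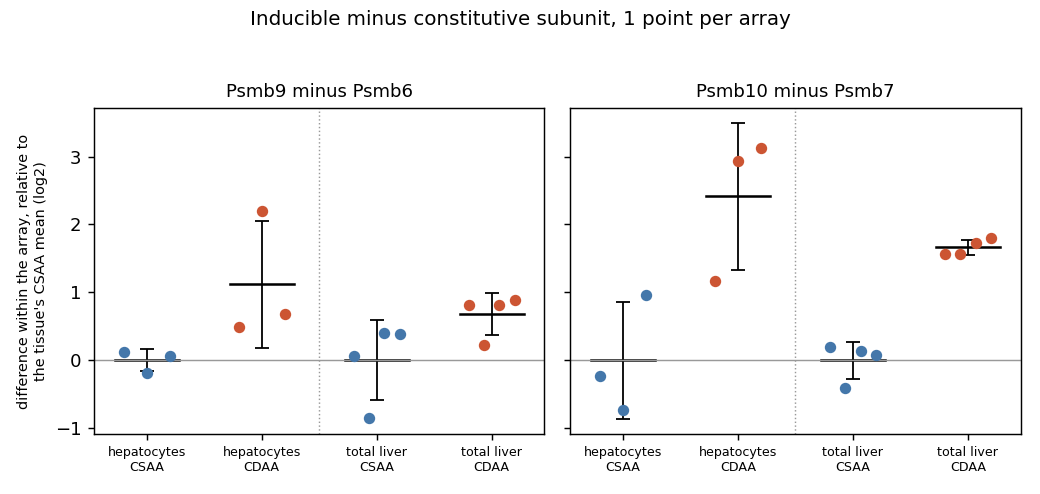
Inducible minus constitutive subunit within each array (log2), relative to the CSAA mean of the tissue, 1 point per array with mean and SD. Psmb10 minus Psmb7 is above its CSAA arrays on all CDAA arrays of both tissues, while Psmb9 minus Psmb6 overlaps between the diets in total liver.

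The sequences before the start sites of 5 genes that rose in a tissue, or that belong to the inducible set, are shown to let the shared and unshared letters be seen. They are the 250 bases ahead of the RefSeq start in GRCm38.p6, on the coding strand, at chr17:34197945-34198194 (+ strand) for Psmb8, chr17:34187331-34187580 (- strand) for Psmb9, chr8:105938393-105938642 (- strand) for Psmb10, chr14:55578244-55578493 (+ strand) for Psme1 and chr7:29180674-29180923 (- strand) for Psmd8. Capitals mark a match to the gamma activated site TTCNNNGAA.
Psmb8: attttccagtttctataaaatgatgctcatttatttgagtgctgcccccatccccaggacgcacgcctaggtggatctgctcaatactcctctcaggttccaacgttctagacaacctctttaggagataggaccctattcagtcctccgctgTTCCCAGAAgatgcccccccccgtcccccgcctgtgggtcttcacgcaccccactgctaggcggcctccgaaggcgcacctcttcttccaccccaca
Psmb9: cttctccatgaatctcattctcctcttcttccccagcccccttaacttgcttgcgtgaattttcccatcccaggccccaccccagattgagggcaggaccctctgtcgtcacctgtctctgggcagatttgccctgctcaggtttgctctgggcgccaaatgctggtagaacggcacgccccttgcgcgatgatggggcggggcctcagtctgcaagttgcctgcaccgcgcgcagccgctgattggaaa
Psmb10: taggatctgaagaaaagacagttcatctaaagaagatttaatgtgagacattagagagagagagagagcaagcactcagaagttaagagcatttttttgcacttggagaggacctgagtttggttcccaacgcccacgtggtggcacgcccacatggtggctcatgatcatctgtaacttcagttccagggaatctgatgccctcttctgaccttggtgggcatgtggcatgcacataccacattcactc
Psme1: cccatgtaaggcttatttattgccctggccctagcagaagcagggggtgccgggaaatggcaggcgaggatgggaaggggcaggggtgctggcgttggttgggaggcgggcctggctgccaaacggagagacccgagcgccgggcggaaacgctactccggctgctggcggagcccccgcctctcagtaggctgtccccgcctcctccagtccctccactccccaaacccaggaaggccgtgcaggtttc
Psmd8: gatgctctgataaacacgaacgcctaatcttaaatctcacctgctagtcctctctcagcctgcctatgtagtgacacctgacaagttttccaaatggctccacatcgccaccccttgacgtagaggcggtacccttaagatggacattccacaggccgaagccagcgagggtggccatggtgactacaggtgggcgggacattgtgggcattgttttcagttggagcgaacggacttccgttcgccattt
The match in Psmb8 lies 97 to 89 bases before the start. On either strand, TTCNNNGAA occurred in 2 of the 42 members with a RefSeq promoter (Psmb8 and Psmg1) and in 7.02% of all 32851 promoters of that length. The core of the interferon-stimulated response element, GAAANNGAAA, occurred in 3 (Psmb3, Psmd4 and Psmd9) and in 2.98% of all. The core of the antioxidant response element, TGACNNNGC, which NRF1 and NRF2 bind, occurred in 4 (Psmb6, Psmc6, Psmd12 and Psmd9) and in 10.2% of all. Members were counted by gene, with a match in any promoter of the gene, while the shares of all were counted by promoter. A match is a description of the letters and not a site. Psmb9 and Tap1, the peptide transporter gene, point away from each other and overlap in the stretch before their RefSeq starts, and Psmb8 follows on the other side of Tap1.

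In the 19S particle, the 6 ATPase genes Psmc1 to Psmc6, the ring that unfolds substrates, differed by -0.15 to 0.11 in total liver and 0.02 to 0.54 in hepatocytes, and none passed in either fit. Of the 11 other 19S genes, 1 rose in total liver and 2 in hepatocytes. Psmd8, a subunit of the 19S lid, read 12.85, 12.99, 13.08 and 12.62 in total liver on CSAA and 14.34, 14.42, 14.15 and 14.003 on CDAA. In hepatocytes it read 11.66, 11.91 and 12.52 on CSAA and 13.22, 13.37 and 13.82 on CDAA. No CDAA array overlapped a CSAA array in either tissue, and CSAA replicate 3 and CDAA replicate 1 of the hepatocytes kept to the sides of their labels. Psmd8 rose by 1.34 ± 0.21 in total liver (adjusted p = 0.000648) and 1.44 ± 0.25 in hepatocytes (adjusted p = 0.000525). It passed with either tissue alone (0.000125 and 0.0300) and in all 16 alternatives in total liver and 14 in hepatocytes, where the adjusted p reached 0.00360 and 0.0300. It was the only member called in both tissues in the model over all arrays and in the fits on 1 tissue alone; with array weights Psmb8, Psmb10, Psme2 and Psme2b were too, and with the replicate block Psme2b.

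Psmd14, the deubiquitinase of the lid, read 8.91, 8.31 and 9.71 in hepatocytes on CSAA and 9.64, 10.61 and 9.68 on CDAA. The groups overlapped at CSAA replicate 3. Psmd14 rose by 1.0 ± 0.33 (adjusted p = 0.0429), but the call was lost without CSAA replicate 1, CSAA replicate 2 or CDAA replicate 2 and held in 6 of 14 alternatives (0.000542 to 0.239). In total liver it read 10.88, 10.78, 10.94 and 10.95 against 11.16, 11.63, 10.98 and 11.22, parted upwards by 0.36 ± 0.28 without passing. Psmd6 and Psmd13, also of the lid, pointed opposite ways in total liver, at -0.37 ± 0.25 (adjusted p = 0.391) and 0.37 ± 0.26 (adjusted p = 0.418). Both overlapped between the diets, with Psmd6 at 11.83 to 12.22 on CSAA and 11.44 to 11.87 on CDAA, and Psmd13 at 12.45 to 12.79 and 12.75 to 13.15.

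**Figure D5:**
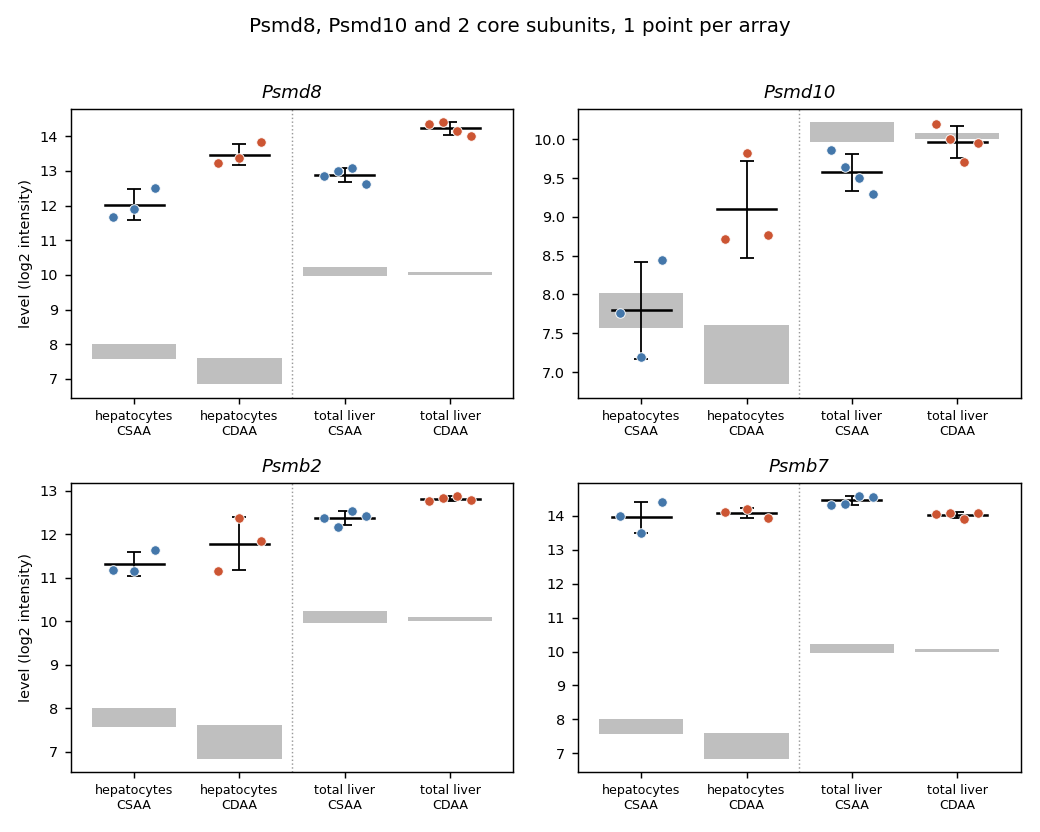
Level (log2 intensity) of Psmd8, Psmd10, Psmb2 and Psmb7, 1 point per array, with mean and SD as black bars and the background range of each group as a grey band. Psmd8 is parted between the diets in both tissues, Psmb2 upwards and Psmb7 downwards in total liver only, and Psmd10 sits at the background band in total liver.

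Of the 5 activator genes 1 rose in hepatocytes and none in total liver. Psme1, the alpha subunit of PA28, read 14.41, 14.22 and 15.37 in hepatocytes on CSAA and 15.01, 16.30 and 16.47 on CDAA. CDAA replicate 1 lay below CSAA replicate 3. Psme1 rose by 1.26 ± 0.35 (adjusted p = 0.0177), a call lost with hepatocytes alone (0.180) and without CSAA replicate 1 or 2 or CDAA replicate 2 or 3, and kept in 9 of 14 alternatives (0.000130 to 0.180). In total liver it read 14.66, 14.60, 14.37 and 14.62 on CSAA and 15.09, 14.87, 14.84 and 14.72 on CDAA. These were parted by a narrow margin and did not pass (0.32 ± 0.30, adjusted p = 0.561).

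Psme2, the beta subunit of PA28, read 11.26, 11.26, 11.29 and 11.35 in total liver on CSAA and 12.24, 11.86, 11.71 and 11.80 on CDAA. All CDAA arrays lay above, by 0.61 ± 0.30 (adjusted p = 0.240 over all arrays, 0.0136 with total liver alone, up to 0.462 over 16 alternatives). In hepatocytes it read 10.56, 10.43 and 11.86 on CSAA and 11.24, 12.44 and 12.22 on CDAA. The groups overlapped (1.02 ± 0.35, adjusted p = 0.0564). Psme2b, a near-identical copy of Psme2 whose probes may read Psme2 RNA, was higher by 0.82 ± 0.34 in total liver (adjusted p = 0.154, and 0.00347 with total liver alone, up to 0.296 over 16 alternatives), where its CSAA arrays were under background and at least 0.30 of the difference was above it. Its 4 CDAA arrays, at 10.28 to 10.51, lay above the CSAA arrays at 9.41 to 9.94. In hepatocytes Psme2b read 7.72, 8.21 and 9.19 on CSAA and 8.42, 9.96 and 9.94 on CDAA, overlapping as Psme2 did (1.07 ± 0.39, adjusted p = 0.0717).

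Psme4, which encodes the activator PA200, ran against Psme1, Psme2 and Psme2b in hepatocytes. It read 12.06, 11.84 and 11.01 on CSAA and 11.71, 9.70 and 9.85 on CDAA. CSAA replicate 3 and CDAA replicate 1 again crossed, here in the opposite sense to the core genes. The difference of -1.22 ± 0.41 did not pass (adjusted p = 0.0506) and passed in 7 of 14 alternatives (0.0000723 to 0.274). In total liver Psme4 kept to 13.15 to 13.56 on all arrays. Psme3, the nuclear activator PA28 gamma, read 11.99, 11.36 and 11.34 in hepatocytes on CSAA and 12.56, 11.44 and 10.33 on CDAA, with CDAA replicates on both sides of CSAA, and 13.13 to 13.68 over the total liver arrays. Psmf1, the inhibitor PI31, was higher by 0.41 ± 0.23 in total liver (adjusted p = 0.307) and 0.53 ± 0.27 in hepatocytes (adjusted p = 0.194), with overlapping arrays in both.

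Among the 7 assembly chaperones, which help build the particle and are not part of it, 2 rose in hepatocytes and none in total liver. Psmd10, or gankyrin, a chaperone of the 19S base, read 7.76, 7.20 and 8.44 in hepatocytes on CSAA and 8.71, 9.82 and 8.77 on CDAA. The groups did not overlap. Psmd10 rose by 1.30 ± 0.33 (adjusted p = 0.0103), a call lost without CSAA replicate 2, without CDAA replicate 2 and with hepatocytes alone (0.127, the highest of 14 alternatives). In total liver 7 of its 8 values were under background. Psmg4, a chaperone of the core, rose by 1.25 ± 0.41 (adjusted p = 0.0433), with 5.12, 4.87 and 6.80 on CSAA and 6.44, 7.14 and 6.95 on CDAA. Only 1 of these 6 values was above background, so the size of this difference has no firm scale, and CDAA replicate 1 lay below CSAA replicate 3. The Psmg4 call was lost without CSAA replicate 1 or 2 or CDAA replicate 2 or 3. It was also lost with hepatocytes alone (adjusted p = 0.220), under joint quantile normalisation and under median centring, and held in 7 of 14 alternatives. Psmg2, another core chaperone, overlapped in total liver at 10.67 to 11.27 against 11.10 to 11.39 (adjusted p = 0.314), as did Psmd5 at 10.24 to 10.35 against 10.29 to 11.18 (adjusted p = 0.549). Psmg3 was under background on all 14 arrays.

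The tissue-restricted core subunits Psma8, of the testis, and Psmb11, of the thymic cortex, were under background on all 14 arrays, at 3.02 to 4.44 and 2.83 to 4.13. Psmb11 is the member counted as lower in hepatocytes, by -0.70 ± 0.22 (adjusted p = 0.0324), which at this level gives no measured change. The call was lost without CSAA replicate 2, CDAA replicate 1 or CDAA replicate 3. Of the 2 genes that match by name alone, Psmc3ip was under background on all arrays and Psme3ip1 passed in neither tissue.

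The diet differences of the 2 tissues were then set against each other. None of the 50 members differed between tissues in the limma interaction test, where 2.57% of all probe sets did (0.212% higher, 2.36% lower), and 1 member, Psmb8, had an unadjusted p under 0.05 (2%, where 11.8% of all probe sets had). Psmb8 differed by -1.38 ± 0.62 (total liver minus hepatocytes, adjusted p = 0.396) and Psme4 by 1.15 ± 0.54 (adjusted p = 0.426). Psmd10 differed by -0.91 ± 0.43 (adjusted p = 0.428) and Psmd8 by -0.10 ± 0.33 (adjusted p = 0.948). Without CDAA replicate 1 of the hepatocytes 7 members differed (Psma3, Psma5, Psmb8, Psmd2, Psmd3, Psme1 and Psme4), where 10.2% of all probe sets did, and with array weights 12 did, where 12.3% of all did. These tests share the unequal spread of the tissues described above.

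The genes around the proteasome were taken from lists that were drawn up with earlier results of these data known. Of 18 measured proteasome-associated and ubiquitin genes, in the model over all arrays only Zfand2a, an arsenite-inducible partner of the 19S particle, rose, by 1.77 ± 0.28 in total liver (adjusted p = 0.000618) and 2.60 ± 0.32 in hepatocytes (adjusted p = 2.27e-05). With total liver alone Zfand5, chosen after its value was seen, also passed (adjusted p = 0.0246). Pomp, the chaperone that finishes core assembly, did not pass (0.02 ± 0.31 and 0.59 ± 0.36). Of 14 measured regulators of proteasome genes, Mafk, a small partner protein of NRF1 and NRF2, rose in total liver by 1.92 ± 0.27 (adjusted p = 0.000260), though under background on every array. Nfya, chosen after its value was seen, passed in hepatocytes (1.25 ± 0.26, adjusted p = 0.00268), though it was under background on all arrays and did not pass with hepatocytes alone (0.0806). With total liver alone 3 of the regulators rose (Mafk, Maff and Nfe2l2) and 2 fell, where 11.7% and 9.05% of all probe sets did. Maff and Nfe2l2, like Mafk, were under background on every total liver array. Nfe2l2, which encodes NRF2, differed there by 0.74 ± 0.55 (adjusted p = 0.448 over all arrays, 0.0482 with total liver alone). With hepatocytes alone none of the regulators passed, where 8.48% of all probe sets did. Nfe2l1, which encodes NRF1, the factor known to raise proteasome genes when the proteasome is inhibited, differed by 0.19 ± 0.41 in total liver and -0.38 ± 0.47 in hepatocytes and did not pass.

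Of 13 measured genes of MHC class I presentation, none passed in total liver, where 10.3% of all probe sets did. With that tissue alone 4 rose (H2-D1, H2-Q4, Tap1 and Tapbp), where 11.7% of all probe sets did. H2-Q4 was under background on all 4 total liver CSAA arrays, with at least 0.38 of its difference above it. It was also under background on 2 of 3 hepatocyte CSAA arrays. In hepatocytes H2-D1 and H2-Q4, which encode class I heavy chains, rose by 1.10 ± 0.26 (adjusted p = 0.00670) and 1.91 ± 0.38 (adjusted p = 0.00181), and the chaperone gene Calr, chosen after its value was seen, fell by 0.84 on the log2 scale (adjusted p = 0.0472). None of the 3 passed with hepatocytes alone. Tap1 differed by 0.78 ± 0.25 in total liver (adjusted p = 0.0586) and 0.49 ± 0.28 in hepatocytes (adjusted p = 0.265). Its total liver value has no firm scale, since all 4 CSAA arrays and 2 of 4 CDAA arrays were under background. B2m, the light chain, differed by 0.28 ± 0.16 and 0.12 ± 0.18 in the same order.

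Of 19 measured genes of the interferon gamma response 9 rose in total liver, where 6.73% of all probe sets did. In hepatocytes 10 rose and 1 fell, where 11% and 7.74% of all did. With 1 tissue alone 9 rose in each, where 11.7% of all did in total liver and 6.53% in hepatocytes. Of the 19 genes, 10 were wholly under background on total liver CSAA arrays and 7 on hepatocyte CSAA arrays. The guanylate-binding protein gene Gbp3 rose by 2.17 ± 0.35 in total liver and 3.29 ± 0.40 in hepatocytes, with all CSAA arrays under background. At least 1.21 of the hepatocyte difference was above it. In total liver 1 CDAA array was under background too, and the CDAA mean lay 0.03 above the mean background of the CSAA arrays. The chemokine gene Cxcl10 rose by 5.66 ± 0.49 in hepatocytes, at least 3.26 of it above background, and its total liver value of 3.53 ± 0.43 has no firm scale, since all 8 arrays were under background. Irf1, which encodes an activator of Psmb9 and other inducible genes, rose by 0.84 ± 0.26 in total liver (adjusted p = 0.0483, passing in 5 of 16 alternatives). There 3 of its 4 CSAA arrays were under background, and the diets overlapped, with CSAA replicate 2 at 10.16. In hepatocytes Irf1 rose by 2.55 ± 0.30 (adjusted p = 1.17e-05, passing in all 14). Of 17 measured NRF2 targets, 6 were wholly under background on total liver CSAA arrays and 4 on hepatocyte CSAA arrays. In total liver 10 of the targets rose, and in hepatocytes 11 rose and 1 fell, beside the shares of all probe sets given above. With 1 tissue alone 11 rose and 1 fell in total liver, where 11.7% and 9.05% of all did. With hepatocytes alone 7 of the targets rose, where 6.53% of all did. Among them was the glutathione transferase gene Gsta2, which rose by 6.78 ± 0.44 and 6.52 ± 0.50.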

How the data were processed

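Gene expression was measured in 14 samples, 1 array each. The deposited values are log2 intensities per probe set that the authors made by RMA, per the submitters' processing notes; the method corrects background, quantile-normalises and summarises probes, and its version and the genome build are not given in the sources used here. Within these values array medians differ between the tissues, and levels were not compared between them. The table has 28846 probe sets, of which 6640 are controls. The other 22206 were all tested, dim ones included; 19572 have 1 symbol and 2634 none. For a symbol with several probe sets the one with the highest mean was used. All 50 members matched RefSeq by gene ID and symbol.

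The group means were fitted in 1 model by limma 3.58.1 under R 4.3.3, with 10 residual degrees of freedom and 5.11 from the prior. CDAA was compared with CSAA within each tissue, and these differences with each other, by two-sided moderated tests. P-values were adjusted by Benjamini-Hochberg across the 22206 probe sets, with a threshold of 0.05. The script was tested on simulated data. Members and lists were chosen with earlier results of these data known, and the background percentile was chosen after the values were seen. Values on each array are given for the catalytic, inducible and activator genes and for up to 8 further members with the smallest p per contrast; from each list up to 4 genes with the smallest p in total liver were named, with a fixed few. Alternatives were trended robust moderation, the arrays of 1 tissue alone, dropping the dimmest 30% of probe sets, quantile normalisation of all arrays jointly, median centring, weights per array, a block for replicate number, averaging a symbol's probe sets and leaving out each array. Protein alignments of the catalytic pairs were not made.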

Additional observations from a re-analysis of the deposited data

Results flagged for a closer look

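Of 50 groups of 4 total liver arrays, 25 genes on 2 diets, 5 held an array far from the other 3; chance alone gives about 1 in 20. Psma8 read 3.65 on CSAA replicate 3, above the others at 3.23 to 3.28, and Psmb11 read 3.78 on CDAA replicate 2, above the others at 3.44 to 3.50, both far under background. Psmb10 read 9.61 on CDAA replicate 4, above 9.33 to 9.36. Psmd5 read 10.24 on CSAA replicate 3, just under the others at 10.33 to 10.35. Psme2b read 9.94 on CSAA replicate 1, above 9.41 to 9.46.

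In 4 genes of the lists around the proteasome the diet difference itself differed between the tissues in the limma test, where 2.57% of all probe sets did. Gstm3, an NRF2 target, rose less in total liver than in hepatocytes (total liver minus hepatocytes -2.27, adjusted p = 0.00658). Irf1 also rose less there (-1.70, adjusted p = 0.0275), with 3 of its 4 total liver CSAA arrays under background. The Irf1 difference passed in 13 of 21 alternatives, where the adjusted p reached 0.0881. Abcc4, an efflux transporter gene and NRF2 target, differed the other way (2.43, adjusted p = 0.0182), but was under background on all CSAA arrays of both tissues and on 2 of 3 hepatocyte CDAA arrays, so this size has no firm scale. Hmox1, an NRF2 target chosen after its value was seen, rose less in total liver (-3.28, adjusted p = 0.00129), with all its CSAA arrays there under background. No proteasome gene met this criterion.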

How the results depend on the processing

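Over 22 alternatives no named gene that passed under either of the compared settings changed direction; 77 values that passed in neither did. The count of members higher in total liver was 6 with total liver alone and with array weights, and 1 to 2 without single arrays. The count lower was 1 with total liver alone and with array weights. Of all probe sets 20.8% passed with total liver alone, 22.5% with array weights and 6.8% to 8.61% without single arrays. In hepatocytes the count higher was 1 with hepatocytes alone, 20 with array weights and 3 to 18 without single arrays. Of all probe sets 8.48%, 30.6% and 13.7% to 26.2% passed in these fits, in either direction. The count lower was 0 with hepatocytes alone, 2 under joint quantile normalisation, centring or array weights, and 0 to 3 without single arrays. The count that differed between tissues was 12 with array weights and 0 to 7 without single arrays. Of all probe sets 12.3% and 1.78% to 10.2% differed in these fits. The cause was not tested, except that the fits on 1 tissue alone replace the shared spread by the tissue's own. Centring moved the median of all probe sets from -0.09 to -0.23 in total liver and from -0.13 to -0.29 in hepatocytes.

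Not every replicate number's arrays deviated together, so the numbers were not taken as a pairing. The correlation of residuals was 0.35, -0.21 and 0.26 for hepatocyte replicates 1 to 3, and -0.13 to 0.02 over the total liver numbers. With the number as a block, 2 members were higher in total liver (Psmd8 and Psme2b), where 9.97% of all probe sets passed. In hepatocytes 10 were higher and 1 lower with the block, where 19.3% of all probe sets passed. Of these members 6 were among the 8 called without it. For the 50 named genes, 2365 of 2544 values kept their side of the threshold, 116 came to pass and 58 ceased to pass. This count does not ask whether a value that passed in neither setting kept its sign. Signal over background limits Psmb8, Psmb9 and Psmb10 in total liver, the 2 tissue-restricted genes in both tissues, and further members. Of all 50 members, 12 on CSAA and 9 on CDAA were wholly under background in total liver, and 6 and 4 in hepatocytes.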
